A study of Mus musculus with 6 samples.

Results

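H19, Igf2, Igf2r, Meg3, Dlk1, Peg3, Plagl1, Mest, Grb10 and Zdbf2 are imprinted genes of the mouse that act on growth, and their expression was followed in cultured kidney tubule cells given TGF-β1. The 10 genes were taken by name, with no cut on their values. Each had 1 row among the 46517 genes counted, and all 10 were among the 15862 genes with enough reads to be tested. The cells were primary renal tubule epithelial cells (RTECs), released from kidneys of wild-type FvB mice by collagenase and grown on plastic without a sort for cell type. The mice were aged 4 to 6 weeks by the sample labels, and the study's methods describe younger males. All cultures were grown with EGF and serum and then kept serum-free for 24 h, after which 3 cultures received 50 ng/ml TGF-β1 for 24 h and 3 served as control (CTL). Neither source says that the 3 cultures of a group came from separate animals, so p-values measure only the spread between these cultures, part of which may be technical.

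An imprinted gene is expressed mainly from the copy inherited from one parent, under the control of DNA methylation laid down in the egg or sperm. Igf2, Dlk1, Peg3, Mest, Plagl1 and Zdbf2 are expressed from the paternal copy, and H19, Igf2r, Meg3 and, in most tissues, Grb10 from the maternal copy. As a group these genes set fetal and placental growth, and many of them fall in level after birth, in the kidney as in other organs. The libraries measured both copies together, so the parental origin of the reads was not measured here.

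Reads on genes ranged from 28313080 to 34183497 per culture, so that 3 reads, taken as the floor of detection, equalled 0.0878 to 0.106 CPM (reads on a gene scaled to a common library total). Expression is given as CPM after TMM scaling, with counting error larger in the genes of few reads. The cultures numbered 2 stood apart from those numbered 1 and 3. The summed level of the Y-linked genes Ddx3y, Eif2s3y, Kdm5d and Uty was at least 142 CPM in both cultures numbered 2 and at most 0.172 CPM in the other 4, although the methods describe male mice. The spread between the 3 cultures of each group therefore includes this difference, and the donor of each culture is not given. The summed level of 6 tubule epithelium markers was 1859, 959.6 and 2553 CPM in CTL replicates 1, 2 and 3 and 1696, 839.4 and 2109 CPM in TGF-β1 replicates 1, 2 and 3. The summed level of 10 fibroblast and stroma markers was 1730, 2949 and 1528 CPM in CTL and 2375, 3777 and 1797 CPM in TGF-β1 cultures, in the same order. Of 6 proximal tubule markers, the transporter Slc5a2 had at most 3 reads in every culture, and Slc34a1, Slc22a6 and Slc22a8 had at most 0.364 CPM. The endocytic receptor genes went the other way. Lrp2 was at 72.0, 74.2 and 62.5 CPM in CTL and 41.9, 28.9 and 38.6 CPM in TGF-β1 cultures, and Cubn ranged from 4.13 to 5.30 CPM. In bulk RNA, fewer cells of a type and less RNA per cell cannot be told apart, so each level below is an average over the cells of a culture.

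Small RNAs are made from several of these transcripts, and RefSeq places 9 mature miRNAs within 4 of the 10 genes, with 9 distinct seeds. The pairs that lie in annotated exons of the noncoding RNAs H19 and Meg3 and in an intron of Mest are shown as examples. Those of Igf2 and a further miRNA of Meg3 are not shown. Exon here means an exon of any annotated isoform, so a pair so named may be intronic in other isoforms. Capitals mark the seed, bases 2 to 8.
miR-675-5p: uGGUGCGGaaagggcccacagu
miR-675-3p: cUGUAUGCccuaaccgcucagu
miR-770-5p: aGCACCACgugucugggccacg
miR-770-3p: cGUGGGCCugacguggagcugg
miR-335-5p: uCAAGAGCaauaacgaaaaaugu
miR-335-3p: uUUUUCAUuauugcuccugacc
On GRCm38.p6, miR-675-5p lies at chr7:142577112-142577133 on the minus strand in an H19 exon, miR-770-5p at chr12:109563710-109563731 on the plus strand in a Meg3 exon, and miR-335-5p at chr6:30741314-30741336 on the plus strand in a Mest intron. The poly(A) libraries counted the host RNAs and not the mature miRNAs, and the miRNA genes Mir675, Mir770 and Mir335 had 0 reads in all 6 cultures.

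Plagl1 encodes a zinc finger factor, also called Zac1, that binds GGGGCCCC and that is itself imprinted. The RefSeq promoter windows of these genes, with that of Plagl1 included, were searched for this site. Windows ran from 250 bases before to 50 bases after each transcript start, and 17 windows covered 9 of the 10 genes. H19 had no window and was not searched. GGGGCCCC, which reads the same on both strands, was in 1 of the 17, that of Peg3, and in 1.08% of all 32851 windows. The palindromic Smad element GTCTAGAC was in none of the 17 and in 0.213% of all windows, and the YY1 core CCATNTT, searched on both strands, was in 2 of the 17, in Igf2 and Grb10, and in 16.1% of all. The median GC content of the 17 windows was 61.3% against 52.7% over all windows. The Peg3 window is chr7:6730370-6730669 on the minus strand of GRCm38.p6, with the GGGGCCCC match, 201 bases before the start, in capitals.
Peg3 promoter: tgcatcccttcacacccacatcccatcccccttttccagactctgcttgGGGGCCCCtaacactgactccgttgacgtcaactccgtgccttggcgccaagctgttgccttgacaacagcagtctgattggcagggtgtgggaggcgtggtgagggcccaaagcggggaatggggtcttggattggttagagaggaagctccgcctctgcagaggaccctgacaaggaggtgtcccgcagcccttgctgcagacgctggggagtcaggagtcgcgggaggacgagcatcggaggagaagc
A match is a description of the letters, and binding was not measured.

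The 10 genes differed widely in level, which was compared per kb of exon. Grb10, an adaptor that restrains insulin and IGF receptor signalling, had 31.1 ± 6.87 CPM per kb (SD, n = 6 cultures). Igf2r, the scavenger receptor that clears IGF2, had 29.2 ± 4.55 CPM per kb, and Peg3, a large zinc finger protein, had 21.6 ± 5.01 CPM per kb. The order among these 3 was not fixed, since Grb10 exceeded Igf2r in 2 of 6 cultures and Igf2r exceeded Peg3 in 4 of 6. The noncoding RNA H19 followed at 3.00 ± 2.88 CPM per kb, below Peg3 in all 6 cultures, and Plagl1 had 2.71 ± 1.49 CPM per kb. H19 exceeded Plagl1 in 2 of 6 cultures, so these did not separate. Mest, a membrane protein of the hydrolase fold, had 0.961 ± 0.167 CPM per kb, and the noncoding RNA Meg3 had 0.931 ± 0.754 CPM per kb over 18089 bases of annotated exon, the sum of many isoforms. Mest was below Plagl1 in all 6 cultures and exceeded Meg3 in 3 of 6. Igf2, the fetal growth factor, was low at 0.362 ± 0.139 CPM per kb, with no culture above 106 reads. Dlk1, a transmembrane protein of the Notch ligand type, had 0.0972 ± 0.0746 CPM per kb and Zdbf2, a zinc finger protein, 0.0466 ± 0.0244 CPM per kb. Igf2 exceeded Dlk1 in all 6 cultures and Dlk1 exceeded Zdbf2 in 5 of 6.

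**Figure D1:**
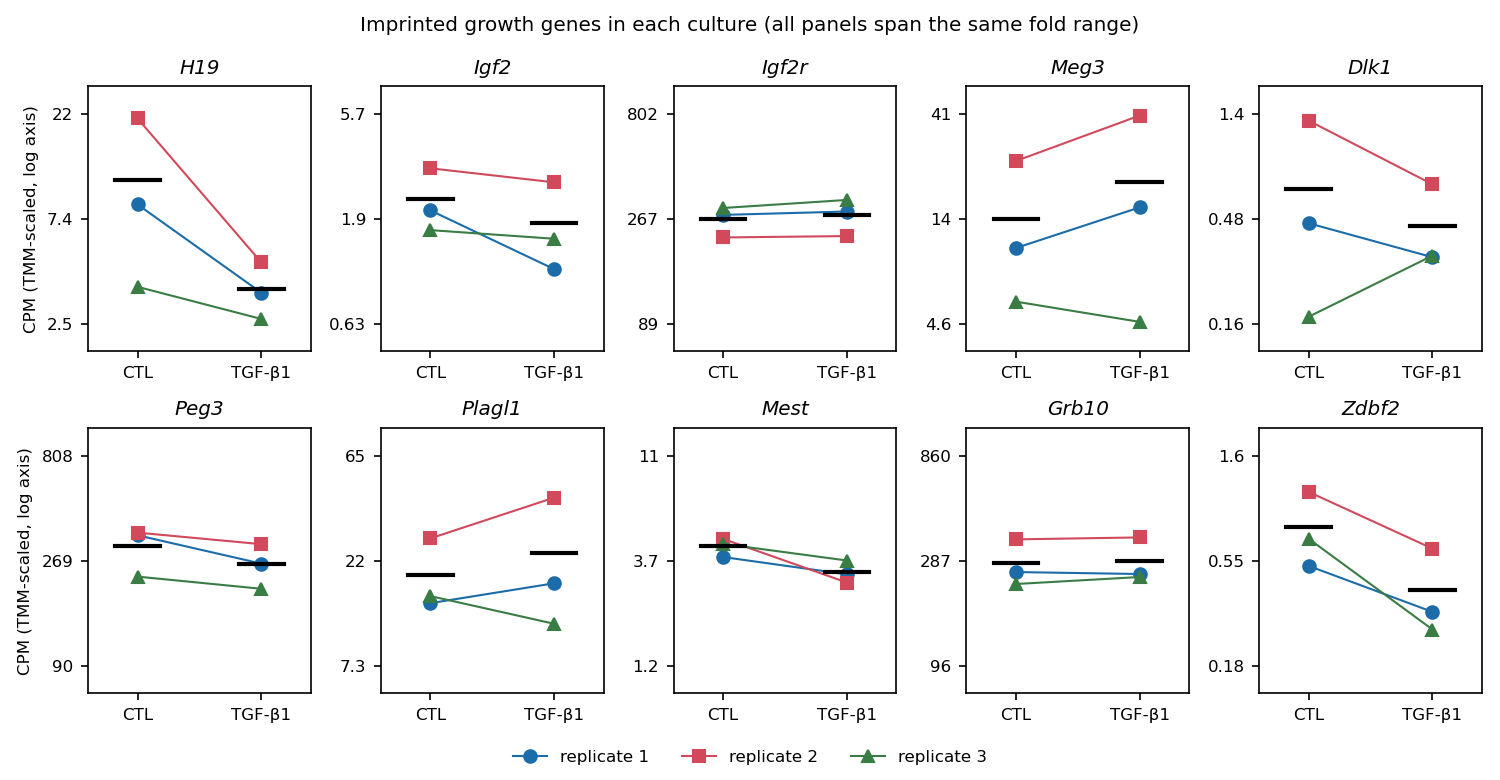
CPM of each of the 10 genes (log axis) in CTL and TGF-β1 cultures, with a coloured line joining the cultures of the same replicate number and a black bar at each group mean. The replicate 2 line lies on top for most genes, as for Meg3 at 25.0 and 40.2 CPM, and for Mest alone all 3 TGF-β1 points lie below all 3 CTL points.

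The comparison of TGF-β1 with CTL cultures asked which genes RTECs change in response to this profibrotic cytokine. In the edgeR quasi-likelihood test, 0 of the 10 genes were higher and 0 were lower at an adjusted p-value of 0.05, against 5% of all genes called higher, 6.69% called lower and 11.7% called in either direction. At an unadjusted p-value of 0.05, 2 of the 10 passed, H19 and Mest, against 28.6% of all genes. DESeq2 called H19 lower, against 9.59% of all genes called lower and 17.2% called in either direction, and limma-voom called 0 of the 10, against 11.5%, with 1 at an unadjusted p-value of 0.05, against 28.3%. Same-numbered cultures of both groups deviated together across genes, and with the replicate number as a block edgeR called 3 of the 10 genes lower, H19, Peg3 and Zdbf2, and 0 higher. That fit called 15.1% of all genes higher, 19.1% lower and 34.2% in either direction, so that 3 of the 10 was above the share of all genes called lower and below the share called in either direction. Without the cultures numbered 2, the block called H19 and Peg3 lower and 31.4% of all genes in either direction, and edgeR without the block called 0 of the 10, against 14.9% of all genes, with 1 at an unadjusted p-value of 0.05, against 30.5%. Without the cultures numbered 1, the block called H19 lower, against 16.8% of all genes, and without those numbered 3 it called H19, Peg3 and Mest lower and Meg3 and Plagl1 higher, against 36.4%. The median log2 fold change of the 10 was -0.31 and that of all genes -0.0028. Within same-numbered pairs, H19, Igf2, Peg3, Mest and Zdbf2 were lower with TGF-β1 in all 3, against 32.6% of all genes, and Igf2r was higher in all 3, against 30.4%.

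**Figure D2:**
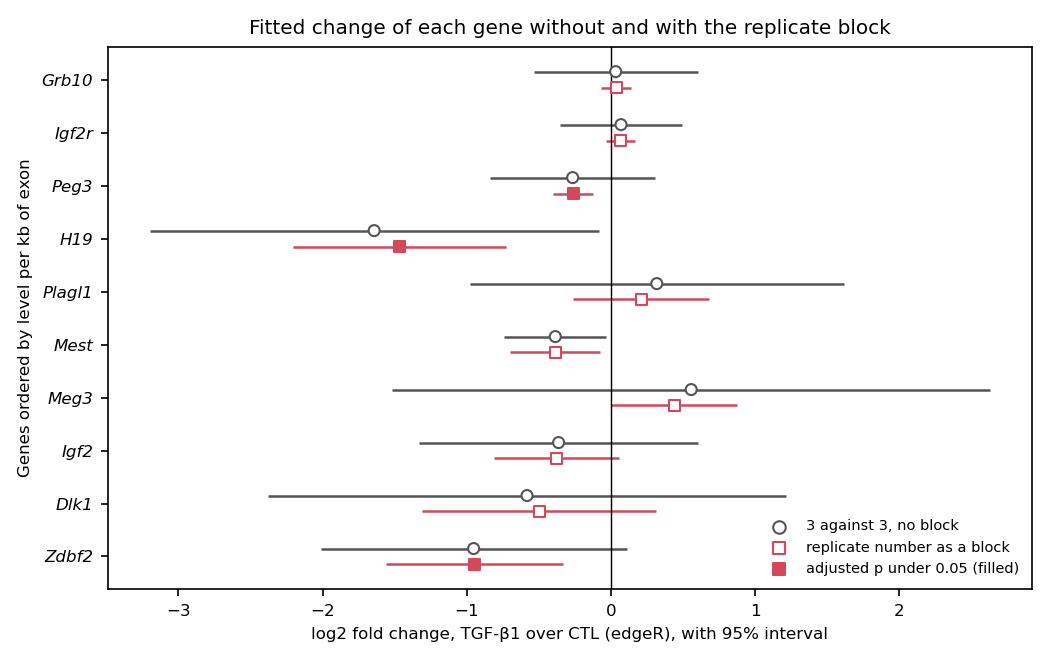
Log2 fold change of each gene (TGF-β1 over CTL, edgeR) with its 95% interval, without and with the replicate block, and filled where the adjusted p-value was under 0.05. Only the blocked values of H19 (-1.47), Peg3 (-0.26) and Zdbf2 (-0.95) are filled, and the blocked intervals are narrower.

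Igf2 and H19 are neighbours on chromosome 7 that share enhancers and an imprinting control region, and are expressed from opposite parental copies. H19 (ENSMUSG00000000031) spans chr7:142575529-142578143 of GRCm38 on the minus strand. H19 was at 8.63, 21.2 and 3.65 CPM in CTL replicates 1, 2 and 3 and at 3.43, 4.71 and 2.61 CPM in TGF-β1 replicates 1, 2 and 3. The CTL cultures were spread widely, replicate 2 was the highest in both groups, and the groups overlapped. The means were 11.2 ± 9.04 and 3.58 ± 1.06 CPM (SD, n = 3), and the log2 fold change was -1.64 (SE 0.638, edgeR adjusted p = 0.157). The differences within pairs were -1.31, -2.15 and -0.47 on the log2 scale. With the replicate block the log2 fold change was -1.47 (SE 0.296, edgeR adjusted p = 0.0134). It was -0.98 with the block but without both cultures numbered 2, where the adjusted p-value was 0.00535, and -1.03 without them and without the block, where it was 0.191. The blocked fit without number 2 had 1 residual degree of freedom.

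Igf2 (ENSMUSG00000048583) spans chr7:142650766-142666816 on the minus strand, and its reads were few, between 35 and 106 per culture. It was at 2.07, 3.22 and 1.69 CPM in CTL and at 1.12, 2.78 and 1.54 CPM in TGF-β1 replicates 1, 2 and 3. Replicate 2 was again the highest in each group and the groups overlapped. The log2 fold change was -0.36 (SE 0.399, edgeR adjusted p = 0.605) and with the block -0.38 (SE 0.188, adjusted p = 0.161). The antisense gene Igf2os, which shares 98 exon bases with it, had 8 to 14 reads, and the strand setting of the counting is not given in the sources used here. The log2 ratio of Igf2 to H19 per kb of exon was -3.17 ± 0.81 in CTL and -2.25 ± 0.49 in TGF-β1 cultures (SD, n = 3), a difference of 0.92 with an exact permutation p of 0.2, where 0.1 is the smallest that 3 cultures against 3 allow. The ratio was higher with TGF-β1 by 0.45, 1.96 and 0.35 within pairs, with an exact paired permutation p of 0.25, the smallest that 3 pairs allow. Of 3 such ratios tested none reached 0.05, as the design could not.

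Igf2r (ENSMUSG00000023830), the receptor that carries IGF2 to the lysosome, lies at chr17:12682406-12769664 on the minus strand. It was at 278.2, 219.7 and 299 CPM in CTL and at 288.1, 223 and 325.1 CPM in TGF-β1 replicates 1, 2 and 3. Here replicate 2 was the lowest in both groups, opposite to its ligand. The log2 fold change was 0.07 (SE 0.172, edgeR adjusted p = 0.831), and with the block 0.06 with a 95% interval of -0.04 to 0.17. Its direction was not settled, since scaling by library size only gave -0.0021 and leaving out CTL replicate 2 gave -0.05. Airn, the noncoding RNA transcribed antisense within Igf2r that silences its paternal copy in the embryo, had 34 to 88 reads and shares 0 exon bases with it. The log2 ratio of Igf2r to Igf2 per kb was 6.16 ± 0.70 in CTL and 6.63 ± 0.89 in TGF-β1 cultures, a difference of 0.47 with an exact permutation p of 0.5. It was higher with TGF-β1 by 0.93, 0.23 and 0.25 within pairs, with an exact paired permutation p of 0.25.

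Dlk1 and Meg3 belong to an imprinted domain of chromosome 12, in which the paternal copy expresses Dlk1 and the maternal copy the noncoding RNA Meg3. Meg3 (ENSMUSG00000021268) spans chr12:109541001-109571726 on the plus strand. It was at 10.1, 25.0 and 5.75 CPM in CTL and at 15.4, 40.2 and 4.66 CPM in TGF-β1 replicates 1, 2 and 3. The cultures of a group lay further apart than the groups did, in the order replicate 2, 1, 3 in each. The log2 fold change was 0.56 (SE 0.849, edgeR adjusted p = 0.719), and within pairs Meg3 was higher by 0.61 and 0.68 in replicates 1 and 2 and differed by -0.30 in replicate 3. With the block the log2 fold change was 0.44 (SE 0.178, edgeR adjusted p = 0.113), and without both cultures numbered 3 it was 0.66 and passed (adjusted p = 5.28e-08), with 1 residual degree of freedom.

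Dlk1 (ENSMUSG00000040856), at chr12:109452823-109463336 on the plus strand, holds preadipocytes and other progenitors back from differentiation. Its reads were 15, 44 and 5 in CTL and 10, 21 and 11 in TGF-β1 replicates 1, 2 and 3, or 0.172 to 1.34 CPM. Replicate 2 was the highest in both groups, and all cultures were above the floor of 3 reads. The log2 fold change was -0.58 (SE 0.737, edgeR adjusted p = 0.657), and within pairs the differences were -0.41, -0.87 and 0.65. Without both cultures numbered 2 the log2 fold change was 0.0098. The log2 ratio of Meg3 to Dlk1 per kb was 2.84 ± 0.37 in CTL and 3.37 ± 1.11 in TGF-β1 cultures, a difference of 0.53 with an exact permutation p of 0.5. Within pairs it differed by 1.10, 1.63 and -1.15, with an exact paired permutation p of 0.75. Meg3 exceeded Dlk1 per kb in every culture.

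The further genes of this domain were read from a list of 51 other imprinted genes, of which 37 were tested. Dio3, the deiodinase that inactivates thyroid hormone and the distal gene of the domain, had 40, 70 and 35 reads in CTL and 1, 1 and 1 in TGF-β1 cultures. All 3 TGF-β1 cultures were below the floor of 3 reads, and the groups were far apart. Over the 145 CTL and 3 TGF-β1 reads in all, the CTL level was 48.2 times that with TGF-β1 (exact interval 16.2 to 236 for counting error only). Its edgeR adjusted p-value was 0.00362, and within pairs it fell by 3.32, 4.07 and 3.33 on a log2 scale with 0.1 CPM added, an offset above the TGF-β1 level that limits these differences. It lost its call without both cultures numbered 1, where the edgeR adjusted p-value was 0.21 and 0 of all 15961 genes tested were called. Rian and Mirg, maternally expressed noncoding RNAs downstream of Meg3, were named after their values were seen. Rian was at 17.0, 35.6 and 12.4 CPM in CTL and at 24.2, 72.2 and 16.3 CPM in TGF-β1 cultures, highest in replicate 2 in both groups and higher with TGF-β1 in each pair. Both were called higher with the block, Rian by 0.68 (edgeR adjusted p = 0.00735) and Mirg by 1.08 (adjusted p = 0.0193), and neither was called without it. Mirg differed by 1.32, 1.12 and 0.02 within pairs. Rian and Mirg thus lay above 0 and Dio3 below 0 in all 3 pairs, while Dlk1 and Meg3 had pairs on both sides.

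**Figure D3:**
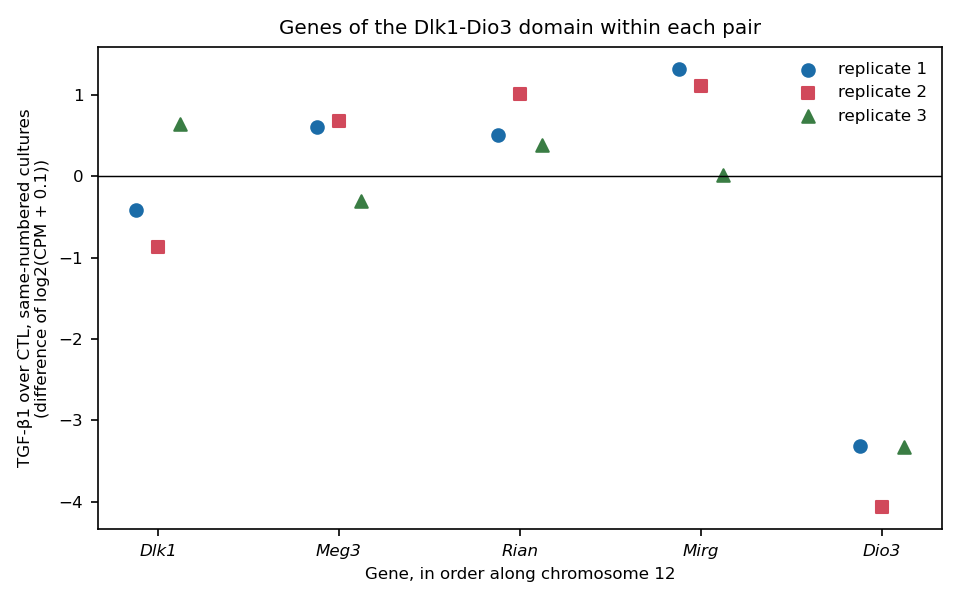
Difference between TGF-β1 and CTL cultures of the same replicate number, in log2(CPM + 0.1), for 5 genes in their order along chromosome 12. Dio3 lies between -4.07 and -3.32 in all 3 pairs, Rian between 0.39 and 1.02, and Dlk1 and Meg3 have pairs on both sides of 0.

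Peg3 (ENSMUSG00000002265), which acts on cell death and on maternal and metabolic traits, lies at chr7:6703892-6730431 on the minus strand. It was at 351.4, 361.2 and 228.2 CPM in CTL and at 261.4, 320.2 and 200.9 CPM in TGF-β1 replicates 1, 2 and 3. Each TGF-β1 culture was below its same-numbered CTL culture, while the groups overlapped because replicate 3 was low in both. The means were 313.6 ± 74.1 and 260.8 ± 59.7 CPM, and the log2 fold change was -0.27 (SE 0.235, edgeR adjusted p = 0.512). With the block it was -0.26 (SE 0.0593, edgeR adjusted p = 0.011). Without the cultures numbered 2 the blocked value was -0.31 (adjusted p = 0.00469), and without those numbered 1 it was -0.18 and no longer called (adjusted p = 0.17). Both of these fits had 1 residual degree of freedom.

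Plagl1 (ENSMUSG00000019817), at chr10:13060504-13131694 on the plus strand, restrains the cell cycle and regulates other imprinted genes. It was at 14.0, 27.5 and 15.0 CPM in CTL and at 17.2, 42.1 and 11.3 CPM in TGF-β1 replicates 1, 2 and 3. Replicate 2 was the highest in both groups, and the TGF-β1 cultures enclosed the CTL range. The log2 fold change was 0.32 (SE 0.532, edgeR adjusted p = 0.745) and with the block 0.21 (SE 0.189, adjusted p = 0.448). Its sign turned to -0.04 with the block and without the cultures numbered 2 (adjusted p = 0.872), and without those numbered 3 it was 0.48 and called (adjusted p = 3.05e-05). Each of these fits had 1 residual degree of freedom, and the fit without number 3 called 36.4% of all genes.

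Mest (ENSMUSG00000051855), named for the embryonic mesoderm, lies at chr6:30723547-30748465 on the plus strand. It was at 3.84, 4.65 and 4.41 CPM in CTL and at 3.21, 2.94 and 3.71 CPM in TGF-β1 replicates 1, 2 and 3. Mest was the only one of the 10 whose groups did not overlap, against 35.1% of all genes. The means were 4.30 ± 0.412 and 3.29 ± 0.387 CPM, and the log2 fold change was -0.39 (SE 0.146, edgeR adjusted p = 0.146). With the block the SE was 0.134 and the edgeR adjusted p-value 0.0583, and Mest passed with the block only without the cultures numbered 3 (-0.46, adjusted p = 0.0333). Copg2, on the opposite strand with 2639 to 3472 reads, shares 912 exon bases with Mest, which had 90 to 153 reads. If the counting ignored strand, reads on the shared bases would be ambiguous and left out, which would understate Mest. The strand setting is not given.

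Grb10 (ENSMUSG00000020176), at chr11:11930508-12038683 on the minus strand, was at 254.6, 358.2 and 224.7 CPM in CTL and at 249.4, 365.6 and 241.7 CPM in TGF-β1 replicates 1, 2 and 3. Replicate 2 was the highest in both groups, and same-numbered cultures were close. The log2 fold change was 0.03 (SE 0.233, edgeR adjusted p = 0.947), and with the block it was 0.03 with a 95% interval of -0.07 to 0.14. Scaling by library size only gave -0.04.

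Zdbf2 (ENSMUSG00000027520), whose imprinting is set by a transient transcript of the early embryo and which promotes growth after birth, lies at chr1:63273265-63314576 on the plus strand. Its reads were 17, 37 and 20 in CTL and 10, 19 and 9 in TGF-β1 replicates 1, 2 and 3. Replicate 2 was the highest in both groups, and the groups overlapped. The means were 0.777 ± 0.312 and 0.403 ± 0.191 CPM, and the log2 fold change was -0.95 (SE 0.44, edgeR adjusted p = 0.215). The differences within pairs were -0.56, -0.76 and -1.10. With the block the SE was 0.265 and the edgeR adjusted p-value 0.0265, and without the cultures of any 1 number it was 0.0777 to 0.0804.

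Most of these genes differed between replicate numbers in the same way in both groups. Replicate 2 was the highest of the 3 cultures in both groups for 8 of the 10, against 24.9% of all genes, and the lowest in both for Igf2r. This pattern was noticed after the values were seen and is given without a test. On the log2 scale, replicate 2 stood above the mean of replicates 1 and 3 by 1.70 in CTL and 2.23 in TGF-β1 cultures for Meg3, by 1.90 and 0.64 for H19, and by 0.92 and 1.59 for Plagl1. The offset was smaller for Peg3, at 0.35 and 0.48, and Grb10, at 0.58 and 0.57. Mest went both ways, with replicate 2 the highest CTL culture and the lowest TGF-β1 culture and offsets of 0.17 and -0.22. The median offset of the 10 was 0.78 in CTL and 0.76 in TGF-β1 cultures, and that of all genes was 0.0083 and -0.0019. Replicate 2 was also the highest in both groups for 20 of the 37 other imprinted genes tested, 6 of 13 IGF2 pathway partners and 2 of 14 imprint maintenance factors. In the same cultures 6 of the 8 fibroblast and stroma markers tested, of 10 listed, were highest in both groups, with Col1a1 at 1465 CPM in CTL replicate 2. Of 6 tubule epithelium markers, 4 were lowest there in both groups. The other tubule markers, Cdh16 and Pax8, were lowest in replicate 2 in TGF-β1 cultures only. In CTL replicates 1, 2 and 3 Cdh16 was at 302.4, 250.6 and 231.6 CPM and Pax8 at 211.7, 215.0 and 192.3 CPM. The stromal markers Postn and Pdgfra went the other way and were lowest in replicate 2 in both groups, Postn at 330.9 CPM in CTL and 403.8 CPM in TGF-β1 cultures. The markers Lum and Tcf21 were below 1 CPM in every culture and were not tested. The part of the cell makeup and of the Y-linked difference in these offsets was not tested.

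**Figure D4:**
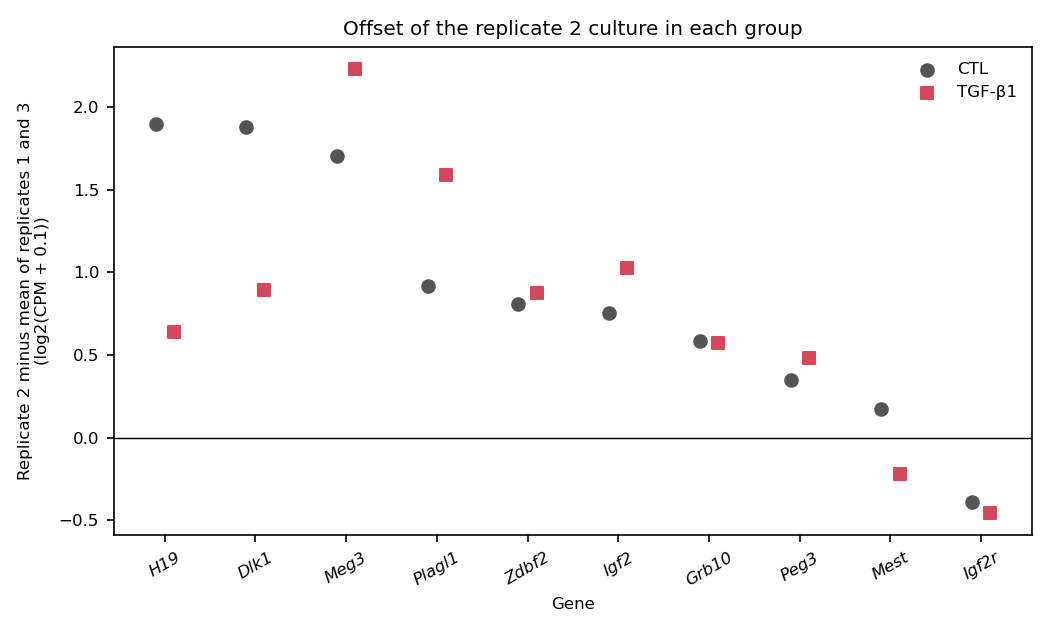
Replicate 2 minus the mean of replicates 1 and 3, in log2(CPM + 0.1), for each gene in CTL and in TGF-β1 cultures. Points lie above 0 in both groups for 8 of the 10 genes, up to 2.23 for Meg3, below 0 in both for Igf2r, and on either side for Mest.

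Among the 37 other imprinted genes tested, edgeR called 1 higher and 1 lower, against 11.7% of all genes in either direction, and with the block 7 higher and 6 lower, against 34.2%. The median log2 fold change of the 37 was -0.03. Blcap, imprinted in the brain, was the gene called higher, at 84.2 ± 1.47 CPM in CTL and 98.4 ± 5.12 CPM in TGF-β1 cultures (log2 fold change 0.22, SE 0.0518, adjusted p = 0.0423). It was not called when any 1 culture was left out. Peg10, a gene derived from a retrotransposon and needed by the placenta, was named after its values were seen. It was at 17.1, 53.3 and 14.5 CPM in CTL and at 27.0, 84.4 and 23.2 CPM in TGF-β1 replicates 1, 2 and 3. The replicate 2 cultures were the highest in both groups, yet the 3 pairs differed by 0.66, 0.66 and 0.68. With the block Peg10 was higher by 0.67 (SE 0.0505, edgeR adjusted p = 6.24e-05), and without it was not called. Its neighbour Sgce, also paternally expressed, had a log2 fold change of -0.34 with the block (edgeR adjusted p = 0.00504), so these adjacent genes lay on opposite sides of 0.

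IGF2 acts through the receptors Igf1r and Insr, and its reach is set by binding proteins and by the RNA-binding Igf2bp family. Of 13 such partners tested, edgeR called 2 higher and 1 lower, against 5% of all genes called higher and 6.69% called lower. With the block it called 3 higher and 6 lower, against 15.1% and 19.1%. Igfbp5, a secreted IGF-binding protein, rose from 49.1 ± 15.7 to 172.6 ± 75.7 CPM (log2 fold change 1.81, SE 0.394, adjusted p = 0.0386). Irs1, the docking protein of these receptors, rose from 41.6 ± 5.89 to 67.9 ± 13.5 CPM (log2 fold change 0.71, SE 0.169, adjusted p = 0.0495). Igf1r fell from 208.5 ± 4.97 to 168.5 ± 9.16 CPM (log2 fold change -0.31, SE 0.055, adjusted p = 0.0216). Leaving out any 1 culture gave 0 to 2 calls in each direction among the 13. Igf1, the related ligand, was at 42.0, 100.7 and 46.5 CPM in CTL and at 97.8, 215.1 and 96.0 CPM in TGF-β1 cultures and was higher by 1.12 with the block (SE 0.049, edgeR adjusted p = 5.55e-06) but was not called without it (edgeR adjusted p = 0.186). Replicate 2 was the highest in both groups for Igf1, as for Igf2.

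The culture-to-culture pattern of Meg3, the gene of the 10 with the widest range (3.08 on the log2 scale), was compared with that of 13553 genes with a mean of at least 1 CPM by the distance between their centred log2 values over the 6 cultures. The nearest were Dnm3os, a noncoding RNA antisense to Dnm3, at a root mean square distance of 0.285, Prr33 at 0.352 and Dok6, a docking adaptor, at 0.398. Dnm3os was at 8.63, 19.8 and 4.55 CPM in CTL and at 7.96, 21.3 and 3.17 CPM in TGF-β1 replicates 1, 2 and 3. It had the order replicate 2, 1, 3 of Meg3 in both groups, which the choice by nearness favours. The edgeR adjusted p-value was 0.988 for Dnm3os, 0.923 for Prr33 and 0.836 for Dok6.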

How the data were processed

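Poly(A) RNA of 3 CTL and 3 TGF-β1–treated RTEC cultures was sequenced as single 50-bp reads. The deposited values are whole read counts per gene without normalization, which the authors made with Trim Galore, STAR 2.4.1d on GRCm38 and HTSeq 0.6.1. The strand setting and annotation release are not given in the sources used here. Reads naming no gene (25.4% to 25.9% per library, of which ambiguous reads were 1.88% to 1.97% of all) were left out.

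Symbols, positions and union exon lengths came from GENCODE M21 (GRCm38), which matched 46005 of 46517 identifiers, and miRNA and promoter sequences from RefSeq (GRCm38.p6). Counts were fitted in R 4.3.3 with edgeR 4.0.16 (filterByExpr by condition, TMM, robust glmQLFit, two-sided glmQLFTest, Benjamini-Hochberg adjustment over 15862 genes, threshold 0.05). SEs were derived from the F statistic. Within-pair differences used log2(CPM + 0.1), and ratios added 0.5 counts. Ratios between transcripts were compared with two-sided exact permutation tests. Counting intervals and the floor of 3 counts cover counting error only, since reads had no molecular identifiers. No pair of libraries agreed within sampling noise (chi-square per degree of freedom at least 9.02).

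The replicate numbers of the labels paired the cultures by their deviations from the group means, which correlated at 0.341 to 0.684 between same-numbered cultures and at -0.617 to 0.215 between others. The study's methods describe no pairing, so the fit without a block came first and the blocked value is given where it changed a call. Alternatives were the block, DESeq2 1.42.0, limma-voom (limma 3.58.1), RLE, scaling by library size alone, a filter of only 1 count or of 10 counts in each culture, a threshold of 0.01, and leaving out each culture or each replicate number. Leaving out a number with the block was added after seeing the data, and each such fit had 1 residual degree of freedom. The fits were tested on simulated counts of 15862 genes, of which 200 were changed by 1 on the log2 scale. The changed genes were drawn from those above 1 CPM, and all genes had the same spread beyond counting error. No difference between replicate numbers was simulated, so the rates need not hold for these cultures and the block was not tried on such a difference. Of the 200 changed genes, edgeR recovered 51.5%, edgeR with the block 49%, limma-voom 48% and DESeq2 51.5%. In the same order, 8.04%, 6.67%, 8.57% and 17.6% of the calls were false. The absence of a call therefore does not show that a gene was unchanged. Figures were drawn with matplotlib 3.10.9.

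The 10 genes, the gene lists and the markers were chosen with earlier results of these data known. Genes named were the 10, listed genes past the threshold without the block, and the 3 genes with the pattern nearest to the gene of widest range. Others are marked where they appear, and Igf1, Sgce, Igf2os, Copg2 and Airn were also named after their values were seen.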

Additional observations from a re-analysis of the deposited data

How the results depend on the processing

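Counts of calls depended most on the replicate block and on which cultures were kept, and the cause was not tested. Without a block 0 of the 10 genes were called in either direction under any setting except DESeq2, which called 1 lower. On simulated counts without a difference between replicate numbers, 17.6% of the DESeq2 calls were false, against 8.04% of the edgeR calls. The false share in these cultures was not measured. With the replicate block 3 of the 10 were called lower, and after leaving out the cultures numbered 1, 2 or 3 the block called 1, 2 and 3 lower and 0, 0 and 2 higher. These last fits were chosen after seeing the data. Over all genes 793 were higher and 1061 lower, and 2388 and 3037 with the block. With the block and without number 2, 2288 were higher and 2718 lower. Without number 3 these were 2581 and 3254, and without number 1, 1649 were lower. DESeq2 called 1201 higher, library size only 508 higher, and the threshold of 0.01 called 127 higher and 192 lower. When single cultures were left out, 109 to 516 were called higher, and the lower calls numbered 186 to 807. Without replicate 3 in both groups and without the block 95 were higher and 190 lower. Without replicate 1 in both groups edgeR called 0 genes, with 1938 of 15961 at an unadjusted p-value under 0.05, and no other tool was run there.

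Among the other imprinted genes (1 higher, 1 lower), the block called 7 and 6, and without numbers 1, 2 and 3 it called 2, 5 and 8 higher and 3, 6 and 7 lower. Library size only gave 0 higher and 2 lower, the threshold of 0.01 gave 0 higher, and at least 10 counts in every culture gave 0 lower, since Dio3 could not be fitted. Leaving out 1 culture gave 0 higher, leaving out number 2 gave 2 higher and 2 lower, leaving out number 1 gave 0 and 0, and leaving out number 3 gave 0 higher. Among IGF2 pathway partners (2 higher, 1 lower), the block called 6 lower, and without numbers 1, 2 and 3 it called 4, 5 and 7 lower. Library size only and at least 10 counts gave 1 higher, no filter gave 0 higher, and the threshold of 0.01 gave 0 and 0. Leaving out 1 culture gave 0 to 2 in each direction, leaving out number 1 or 3 gave 0 and 0, and leaving out number 2 gave 2 lower. Among imprint maintenance factors (0 higher, 2 lower), the block called 4 higher. Without numbers 1, 2 and 3 the block called 0, 5 and 3 higher, and without number 3 it called 4 lower. DESeq2 called 1 higher, the threshold of 0.01 gave 1 lower, leaving out 1 culture gave 1 to 2 lower, and leaving out numbers 1 and 3 gave 0 and 1 lower.

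Log2 fold changes that changed sign were those of Igf2r (-0.0021 with library size only, -0.056 to 0.20 leaving out 1 culture), Grb10 (-0.044 with library size only, -0.19 to 0.25), Meg3 (-0.45 to 1.34), Dlk1 (-1.03 to 0.46, 0.0098 without number 2 and 0.043 with the block as well) and Plagl1 (-0.41 to 0.70, -0.029 without number 2 and -0.040 with the block as well). Those of H19 (-2.06 to -0.78), Igf2 (-0.81 to -0.06), Peg3 (-0.45 to -0.11), Mest (-0.48 to -0.25) and Zdbf2 (-1.40 to -0.58) stayed below 0 under every setting run. Dlk1 and Zdbf2 have no value at 10 counts in every culture. Library size only shifted the median of all genes to -0.08. The ratio of Igf2 to H19 changed by 0.54 to 1.35 leaving out 1 culture. Few reads limit Dlk1, Zdbf2 and Igf2 most.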

Other observations

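Imprints are kept through cell division by a set of factors that includes the maintenance methyltransferase Dnmt1 and its recruiter Uhrf1. Of 16 such factors listed, 14 were tested, and edgeR called 0 higher and 2 lower without the replicate block, against 6.69% of all genes called lower, with 7 of the 14 at an unadjusted p-value under 0.05, against 28.6%. DESeq2 called 1 of them higher and 3 lower, against 9.59% of all genes called lower and 17.2% called in either direction. With the block edgeR called 4 higher and 3 lower, against 34.2% of all genes. Uhrf1, which reads hemimethylated DNA behind the replication fork, was at 16.0, 16.6 and 14.3 CPM in CTL and at 7.15, 8.21 and 8.69 CPM in TGF-β1 replicates 1, 2 and 3. All TGF-β1 cultures were far below all CTL cultures, and Uhrf1 fell by 0.96 on the log2 scale (SE 0.108, edgeR adjusted p = 0.00683). Rad21, a subunit of cohesin, was at 243.7 ± 7.54 CPM in CTL and 194.4 ± 11.9 CPM in TGF-β1 cultures (SD, n = 3) and fell by 0.33 (SE 0.0603, edgeR adjusted p = 0.0237). Dnmt1, named after its values were seen, was at 50.7 ± 3.88 and 47.5 ± 2.54 CPM, with a log2 fold change of -0.09 (SE 0.0735, edgeR adjusted p = 0.461). Zfp57, the zinc finger protein that binds methylated imprinting control regions, was also named afterwards and was at 23.0 ± 0.406 and 22.4 ± 3.40 CPM, with a log2 fold change of -0.04 (SE 0.115, edgeR adjusted p = 0.85). DNA methylation was not measured in these cultures.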
